A study of Mus musculus with 10 samples.

Results

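The S100 genes encode small calcium-binding proteins, and 10 of them were followed across human breast tumor cells grown in mice: S100A4, S100A6, S100A7, S100A8, S100A9, S100A10, S100A11, S100A13, S100A14 and S100A16. They were picked by symbol, as probe sets (groups of short oligonucleotides that read one transcript on the array) annotated with exactly 1 of these symbols. That gave 17 of the 61359 probe sets on the array and 10 of the 19556 genes that had a probe set of their own. The choice was made with results of the same arrays in view, so the differences of the 10 genes between groups are described and not used as evidence. All 10 passed the filter on low values.

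The cells came from human breast cancer described as estrogen receptor positive, grown in female nu/nu mice aged 20 weeks. Nude mice of this strain lack a working thymus and therefore most T cells. Every mouse had received an estrogen pellet, so the withdrawn groups had also been exposed to estrogen. In the estrogen groups the pellet stayed in place, and in the withdrawn groups it was taken out for 1 week. Tumor cells were cut by laser capture from frozen sections of axillary lymph node metastases or of the primary mammary gland tumor, and PCR amplified the RNA ahead of labelling. There were 3 node metastases with estrogen (mice 6, 11 and 14), 3 node metastases after withdrawal (mice 9, 10 and 19), 2 primary tumors with estrogen (mice 11 and 14) and 2 primary tumors after withdrawal (mice 10 and 19). The 10 arrays thus came from 6 mice, 4 of which gave both sites. The cell line is not named in the sources used here, nor whether 1 line or several were grown. There was no tumor-free node or tumor from a mouse that never had a pellet among these groups.

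S100 proteins carry a pair of calcium-binding EF-hand motifs and mostly work as dimers. On binding calcium they expose a surface that docks onto target proteins, and most of their genes lie in a cluster on the long arm of human chromosome 1. Several act inside the cell on the cytoskeleton and membranes, while S100A7, S100A8 and S100A9 can be released and act as alarm signals on receptors such as RAGE and TLR4. In breast cancer S100A7 is known from ductal carcinoma in situ and S100A4 from work on metastasis.

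All values are log2 signals as deposited, and the same comparisons were repeated after quantile normalization, which gives every array the same distribution of values. This repeat matters here, because the top of the range was compressed on the 2 primary tumor arrays with estrogen. Their 99th percentiles were 9.44 and 10.04, against 11.39 to 11.67 on the other 8 arrays, while the medians of all 10 arrays lay between 2.70 and 2.83. Among the 847 genes with a mean over 10, the median difference between estrogen and withdrawn primary tumors was -1.90 as deposited and -0.19 after quantile normalization. Over all genes, quantile normalization moved the median of that comparison from -0.10 to 0.06, and that between nodes and primary tumors with estrogen from 0.26 to 0.02. The first principal component, with 50.2% of the variance, set those 2 arrays and the node of mouse 11 apart from the other 7. The 7 luminal epithelial markers, among them KRT8, KRT18, EPCAM and ESR1, were all measured with means over 4. As deposited, their average on an array, which was not taken after quantile normalization, was lower with estrogen. It was 9.21 to 10.27 against 10.37 to 10.59 in nodes and 8.15 to 8.37 against 10.36 to 10.42 in primary tumors. Single markers differed. In nodes GATA3 and ESR1 were lower with estrogen without overlap on both scales, against 5.46% and 5.63% of all genes. The other 5 overlapped. In primary tumors 5 were lower without overlap as deposited, against 38.3% of all genes, and 4 after quantile normalization, against 26.8%. KRT19 was higher there without overlap on both scales, against 22.6% and 31.1% of all genes. Of 11 measured myeloid markers 10 had means under 4, of 6 lymphoid markers 5, and of 6 stromal markers 5. Signals came from cells in bulk, so that fewer cells of a type and less RNA per cell cannot be told apart.

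The 3 secreted S100 genes had their highest level in estrogen-treated node metastases and their lowest in withdrawn primary tumors. S100A7, S100A8 and S100A9 were each higher with estrogen than after withdrawal in both sites, on both scales. S100A7 stood 12.8-fold higher with estrogen in nodes and 19.8-fold higher in primary tumors. The same order of the outer groups held for S100A4, while S100A13 went the other way with estrogen.

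S100A7 (psoriasin), a protein released by stressed and keratinizing epithelium, had values of 10.43, 11.55 and 10.11 in the estrogen nodes of mice 6, 11 and 14. It read 5.34, 8.20 and 7.52 in the withdrawn nodes of mice 9, 10 and 19. In primary tumors it read 7.90 and 8.27 with estrogen and 4.02 and 3.48 after withdrawal. The lowest estrogen node thus lay 1.91 above the highest withdrawn node, and the pellet states did not overlap in either site. The group means were 10.70 ± 0.76 (SD, n = 3), 7.02 ± 1.49 (n = 3), 8.09 ± 0.26 (n = 2) and 3.75 ± 0.38 (n = 2) in the same order. Estrogen primary tumors and withdrawn nodes were neighbours in that order with overlapping values, and mouse 9 held the lowest node value. The fitted difference between pellet states was 3.68 ± 0.69 (SE) in nodes and 4.31 ± 0.84 in primary tumors, and 3.56 ± 0.72 and 5.27 ± 0.88 after quantile normalization. Fitted differences can depart by a few hundredths from differences of group means, because the model weights arrays of one mouse together.

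S100A8, which pairs with S100A9 to form calprotectin, the calcium- and zinc-binding complex abundant in neutrophils and inflamed epithelium, read 12.85, 13.39 and 12.46 in estrogen nodes. It read 9.91, 12.30 and 11.73 in withdrawn nodes, 10.03 and 10.57 in estrogen primary tumors, and 9.56 and 6.19 in withdrawn primary tumors. The pellet states did not overlap in either site, although in nodes only 0.16 separated the nearest values. The means were 12.90 ± 0.47 and 11.31 ± 1.25 in nodes (n = 3 each), and 10.30 ± 0.38 and 7.88 ± 2.39 in primary tumors (n = 2 each). The difference between pellet states was 1.59 ± 0.87 in nodes and 2.39 ± 1.06 in primary tumors, and 1.61 ± 0.84 and 4.04 ± 1.03 after quantile normalization. The primary tumor value rested on mouse 19, since it was 0.59 without that withdrawn tumor and 4.05 without the withdrawn tumor of mouse 10. All 3 probe sets of S100A8 were higher with estrogen in both sites, the dimmest of them by 1.46 in nodes and 1.88 in primary tumors.

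S100A9, the other subunit of calprotectin, read 8.77, 11.84 and 7.11 in estrogen nodes and 4.31, 7.01 and 6.16 in withdrawn nodes. In primary tumors it read 7.83 and 6.55 with estrogen and 4.01 and 2.92 after withdrawal. The pellet states did not overlap in either site, but the nearest node values were only 0.11 apart. The means were 9.24 ± 2.40 and 5.83 ± 1.38 in nodes, and 7.19 ± 0.91 and 3.47 ± 0.77 in primary tumors. The difference between pellet states was 3.41 ± 1.15 in nodes and 3.70 ± 1.41 in primary tumors, and 3.29 ± 1.18 and 4.50 ± 1.44 after quantile normalization. The node of mouse 11 held much of the node value, which was 2.12 without it.

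The 3 genes varied together from array to array. Over the 10 arrays Pearson's r after quantile normalization was 0.93 between S100A7 and S100A9, 0.92 between S100A7 and S100A8, and 0.87 between S100A8 and S100A9. These are descriptions over arrays that share groups and mice, and the group differences given above enter into them. Across the 10 genes the lowest correlation was that of S100A9 with S100A13, at -0.76.

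**Figure D1:**
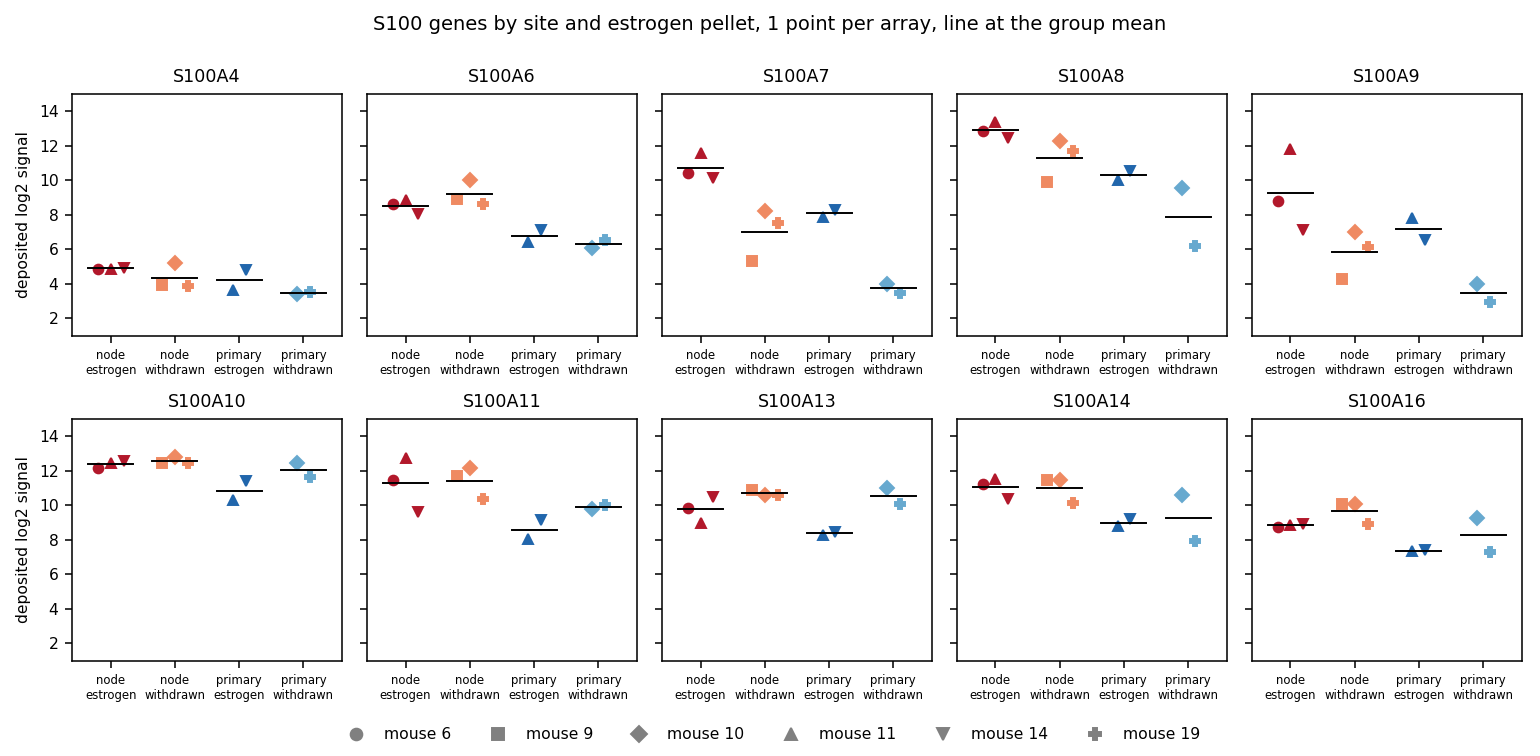
Deposited log2 signal of each of the 10 S100 genes on each of the 10 arrays, 1 panel per gene, with points for single arrays and a bar for the group mean. S100A7, S100A8 and S100A9 are higher with estrogen in nodes and in primary tumors, whereas S100A13 is lower with estrogen in both.

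Some squamous and basal markers were higher with estrogen beside these 3 genes. Of the 7 genes on that list 5 were measured (KRT5, KRT10, KRT14, IVL and SPRR1B), and their average on an array ranged from 6.18 to 8.33 in estrogen nodes and from 4.99 to 6.16 in withdrawn nodes. In primary tumors it ranged from 6.33 to 7.16 with estrogen and from 4.81 to 5.24 after withdrawal. SPRR1B, a precursor of the cornified envelope of squamous cells, read 8.02, 13.16 and 9.36 in estrogen nodes, 4.88, 7.65 and 7.69 in withdrawn nodes, 8.17 and 8.49 in estrogen primary tumors, and 2.35 and 3.43 in withdrawn ones. In nodes SPRR1B alone of the 5 was higher with estrogen without overlap, against 4.47% of all genes. The other 4 overlapped. In primary tumors SPRR1B, KRT5 and IVL were higher without overlap on both scales. Of all genes 22.6% were so as deposited and 31.1% after quantile normalization. KRT14 overlapped. KRT10 was lower without overlap, at 8.12 and 8.89 against 10.07 and 10.26, where 38.3% of all genes were. After quantile normalization KRT10 overlapped. By site KRT5 went against the S100 genes with estrogen, at 6.32 and 7.72 in primary tumors and 3.18, 6.22 and 3.44 in nodes. The part of squamous cells in the S100 values was not tested. The average of the 11 myeloid markers, from cells known for S100A8 and S100A9, lay between 2.73 and 3.02 on 9 arrays and at 3.28 in the estrogen node of mouse 11, where S100A9 was highest. On that array ITGAM read 5.06 and CD14 4.33, against at most 3.28 and 3.02 on the other 9. AIF1 (5.41), ELANE (3.25) and MPO (3.24) were also at their highest there, by smaller margins. CSF3R read 3.63, within the range of the other arrays. PTPRC (2.17), LYZ (2.18), CYBB (2.53), FCGR3B (2.23) and TYROBP (2.07) lay below the array median of 2.78. In primary tumors the myeloid average was 2.95 to 3.02 with estrogen and 2.76 to 2.83 after withdrawal. There 5 of the 11 markers were higher without overlap and 1 lower as deposited, against 22.6% and 38.3% of all genes. After quantile normalization these were 3 and 1, against 31.1% and 26.8%. In nodes 1 was higher without overlap as deposited, against 4.47%, and 0 after quantile normalization, against 5.47%. On these scales 0 were lower there, against 5.46% and 5.63%. The part of myeloid cells in the S100 values was not tested. The array was made for human transcripts, and how far it reads cells of the mouse host was not tested.

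S100A13 takes part in the release of FGF1 and interleukin 1 alpha, proteins that lack the usual secretion signal. The gene read 9.83, 8.98 and 10.50 in estrogen nodes. It read 10.88, 10.59 and 10.57 in withdrawn nodes, 8.29 and 8.43 in estrogen primary tumors, and 11.01 and 10.08 in withdrawn ones. The withdrawn arrays were higher without overlap in both sites, by 0.07 between the nearest node values. The means were 9.77 ± 0.76 and 10.68 ± 0.17 in nodes, and 8.36 ± 0.10 and 10.54 ± 0.66 in primary tumors. The difference between pellet states was -0.91 ± 0.39 in nodes and -2.18 ± 0.48 in primary tumors, and -0.79 ± 0.29 and -0.68 ± 0.36 after quantile normalization. The sign was the same on both scales in each site, while the primary tumor value was much larger as deposited.

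S100A4, which binds non-muscle myosin and is known from studies of cell movement, was dim. It read 4.89, 4.87 and 4.94 in estrogen nodes, 3.95, 5.22 and 3.90 in withdrawn nodes, 3.65 and 4.83 in estrogen primary tumors, and 3.44 and 3.56 in withdrawn ones. The 3 estrogen nodes were very close to each other, and the withdrawn node of mouse 10 was above all of them. The pellet states overlapped in nodes and not in primary tumors. The difference between pellet states was 0.55 ± 0.41 in nodes and 0.74 ± 0.50 in primary tumors, and 0.64 ± 0.41 and 0.88 ± 0.51 after quantile normalization.

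S100A6 (calcyclin), a partner of the ubiquitin ligase adaptor CACYBP, differed mainly by site. It read 8.64, 8.87 and 8.03 in estrogen nodes and 8.91, 10.02 and 8.64 in withdrawn nodes. It read 6.41 and 7.10 in estrogen primary tumors and 6.08 and 6.56 in withdrawn ones. As deposited every node array was above every primary tumor array, and the pellet states overlapped in both sites. After quantile normalization the node of mouse 14 (7.67) lay below the primary tumor of that mouse (7.90), and in primary tumors the estrogen arrays were higher without overlap. The means were 8.51 ± 0.44 and 9.19 ± 0.73 in nodes, and 6.76 ± 0.49 and 6.32 ± 0.33 in primary tumors. The difference between pellet states was -0.68 ± 0.40 in nodes and 0.43 ± 0.49 in primary tumors, and -0.54 ± 0.42 and 1.22 ± 0.51 after quantile normalization.

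S100A10, which joins annexin A2 in a complex at the cell membrane, was at 12.18, 12.44 and 12.55 in estrogen nodes and at 12.42, 12.82 and 12.46 in withdrawn nodes. It was at 10.32 and 11.38 in estrogen primary tumors and at 12.42 and 11.64 in withdrawn ones. The 2 estrogen primary tumors were the lowest arrays. After quantile normalization the estrogen primary tumors read 12.09 and 12.37, within the range of the nodes, and the difference between pellet states in primary tumors went from -1.18 ± 0.40 to 0.58 ± 0.32.

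S100A11 (calgizzarin), an annexin A1 partner, read 11.46, 12.74 and 9.61 in estrogen nodes, 11.71, 12.18 and 10.38 in withdrawn nodes, 8.04 and 9.12 in estrogen primary tumors, and 9.78 and 9.99 in withdrawn ones. Its node values spread widely within each pellet state, with mouse 14 lowest among estrogen nodes and mouse 19 lowest among withdrawn nodes. Between pellet states it differed by -0.15 ± 0.76 in nodes and -1.30 ± 0.93 in primary tumors, the latter 0.13 ± 0.92 after quantile normalization. A transcribed pseudogene lies close to it in sequence, and probe sets annotated with both were left out by the rule.

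S100A14, expressed in epithelia, read 11.22, 11.51 and 10.35 in estrogen nodes, 11.46, 11.44 and 10.15 in withdrawn nodes, 8.80 and 9.18 in estrogen primary tumors, and 10.59 and 7.92 in withdrawn ones. S100A16, a broadly expressed member, read 8.75, 8.86 and 8.91 in estrogen nodes, 10.05, 10.06 and 8.89 in withdrawn nodes, 7.33 and 7.39 in estrogen primary tumors, and 9.25 and 7.32 in withdrawn ones. For both genes the withdrawn primary tumor of mouse 10 was far above that of mouse 19, and as deposited the pellet states overlapped in each site. Between pellet states the difference was 0.01 ± 0.68 in nodes and -0.25 ± 0.83 in primary tumors for S100A14, and -0.82 ± 0.50 and -0.91 ± 0.61 for S100A16. After quantile normalization the primary tumor values turned to 1.40 ± 0.77 for S100A14, whose pellet states then did not overlap, and 0.17 ± 0.53 for S100A16, while the node values were 0.02 and -0.70. The 2 genes followed each other over the 10 arrays with a correlation of 0.81 after quantile normalization, as S100A6 did S100A11 with 0.80.

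Set side by side, the estrogen comparisons of the 10 genes looked as follows, as a description from which nothing is read. In nodes the groups did not overlap for 3 genes with higher values under estrogen (S100A7, S100A8 and S100A9), against 4.47% of the 17170 genes tested, and for 1 gene with lower values (S100A13), against 5.46%. None of the 10 passed limma's test at an adjusted p of 0.05 in nodes, as was the case for all genes (0% called), and 3 of the 10 had an unadjusted p under 0.05, against 5.84% of all genes. After quantile normalization the same counts without overlap were 3 higher, against 5.47%, and 1 lower, against 5.63%, again with no call among all genes. In primary tumors 4 genes were higher without overlap (S100A4, S100A7, S100A8 and S100A9), against 22.6% of all genes, and 3 were lower (S100A10, S100A11 and S100A13), against 38.3%. Of these S100A7 passed the test as higher, against 0.879% of genes called higher, and S100A13 as lower, against 6.94% called lower. After quantile normalization S100A7 was called higher in primary tumors, where 0.757% of genes were, and none of the 10 was called lower, where 0.582% were. On that scale 7 genes were higher without overlap, against 31.1%, and 1 was lower, against 26.8%. The call of S100A7 was lost when any 1 of the 4 primary tumor arrays was left out, with values between 3.91 and 4.72. That of S100A13 held in 3 of the 10 fits that left out 1 array.

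Averaged over the sites, S100A7 differed by 3.99 ± 0.53 and S100A9 by 3.56 ± 0.90 between pellet states, both called higher, where 0.978% of genes were. S100A13 differed by -1.54 ± 0.30 and was called lower, where 7.04% were. After quantile normalization S100A7 (4.41 ± 0.56) and S100A8 (2.82 ± 0.65) were called higher, where 1.62% of genes were, and none was called lower, where 2.1% were. The call of S100A7 in the average was kept when any single array was left out except the estrogen primary tumor of mouse 11. The call of S100A9 held in 2 of the 10 such fits and that of S100A13 in 3.

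The signal of 18 hybridization control probe sets split the arrays into a low and a high side. In nodes the low side held 2 arrays of each pellet state and the high side 1 of each, and the estrogen difference on the low and the high side was 3.50 and 4.03 for S100A7, 1.55 and 1.66 for S100A8, 2.28 and 5.67 for S100A9, and -0.57 and -1.59 for S100A13. S100A4, S100A10 and S100A16 had 1 sign on both sides too, so that 7 of the 10 did, whereas S100A6 (-1.13 and 0.23), S100A11 (-1.41 and 2.36) and S100A14 (-0.66 and 1.36) changed sign. In primary tumors both estrogen arrays were on the low side and both withdrawn arrays on the high side, so that side and pellet state cannot be told apart there.

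**Figure D2:**
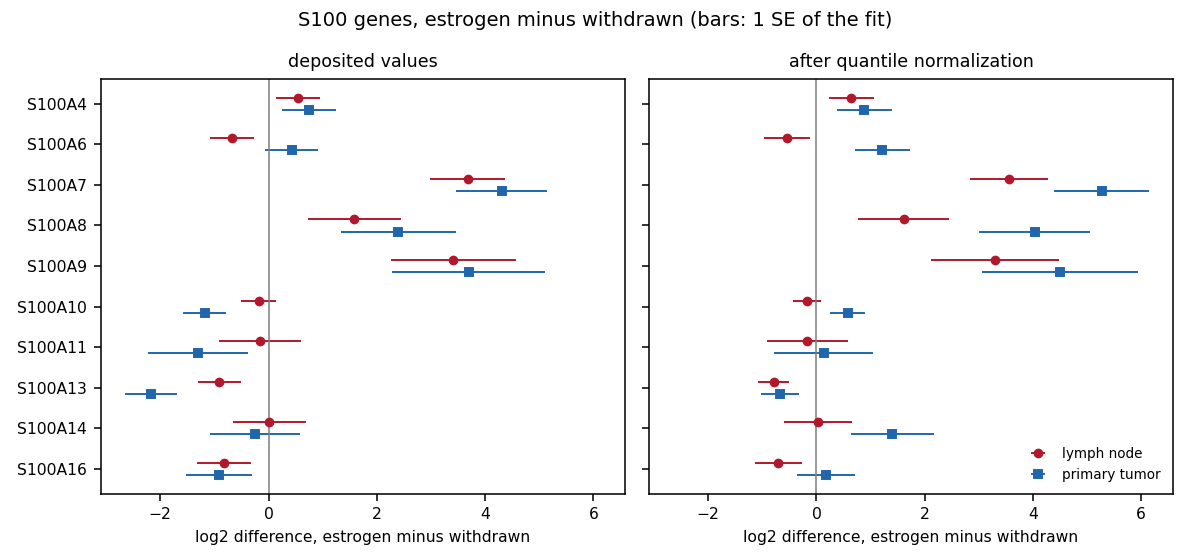
Difference between estrogen and withdrawn groups for each of the 10 genes, in nodes and in primary tumors, as log2 units with the standard error, as deposited and after quantile normalization. S100A7, S100A8 and S100A9 lie above 0 in both sites on both scales, S100A13 below 0, and S100A10, S100A11, S100A14 and S100A16 change from below to above 0 in primary tumors with quantile normalization.

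The size of the estrogen difference was also compared between the sites within the same fit. The node difference minus the primary tumor difference was -0.63 ± 1.11 for S100A7, -0.81 ± 1.39 for S100A8, -0.29 ± 1.86 for S100A9 and 1.27 ± 0.63 for S100A13. None of the 10 genes passed limma's test on it, against 0.0116% of genes called, and 0 had an unadjusted p under 0.05, against 10.8% of all genes. The standard errors were of about the size of these differences or larger for S100A7, S100A8 and S100A9, so equal responses were not shown either. As deposited 5 of the 10 were above 0 and 5 below, whereas after quantile normalization all 10 were below 0 with a median of -1.04, where the median of all genes was -0.02. None was called on that scale either, against 0.00582%, and 1 had an unadjusted p under 0.05, against 6.34%. The study's stated interest was whether node metastases respond to estrogen differently from primary tumors, and for 5 of these 10 genes the sign of that difference turned on the scale.

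By site, the 10 genes were all above 0 for node minus primary tumor in both pellet states. With estrogen their median difference was 1.90, against 0.26 over all genes, and after withdrawal 1.66, against 0.07. The means of the 10 ran from 4.32 (S100A4) to 12.06 (S100A10), while the difference over all genes with estrogen rose with the level. Its median was -0.03 for the 7624 genes with a mean under 4, 0.70 between 4 and 10, and 1.88 for the 847 over 10. After withdrawal these medians were 0.03, 0.14 and 0.04. With estrogen 9 of the 10 did not overlap (all except S100A9), against 28% of genes higher, and S100A6 (1.76 ± 0.45) and S100A10 (1.53 ± 0.37) were called higher, against 7.81%. Of the 10 fits that left out 1 array, 4 kept that call of S100A6 and 2 that of S100A10. After withdrawal 6 did not overlap (S100A4, S100A6, S100A7, S100A8, S100A9 and S100A11), against 20.8%, and limma called none, against 0% of all genes, while 5 had an unadjusted p under 0.05, against 10% of all genes. The 2 site comparisons share no array, but each shares arrays with the estrogen comparisons. The side of the hybridization control signal was also unequal between sites. Both primary tumors were on the low side with estrogen and on the high side after withdrawal. Of the nodes, 1 in each pellet state was on the high side and 2 on the low side.

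After withdrawal the site differences were 2.86 ± 0.45 for S100A6, 3.23 ± 0.78 for S100A7 and 3.40 ± 0.99 for S100A8, which is 7.28-fold for S100A6. Quantile normalization left these at 2.63, 2.93 and 3.21, and the 10 genes had a median of 1.59, with 6 genes not overlapping, against 17.7% of all genes. With estrogen, by contrast, the median went from 1.90 to 0.61, the count of genes without overlap from 9 to 3, against 13.6%, and the calls from 2 to 0, against 0.0757% called higher. S100A10 then stood at -0.19 and S100A13 at -0.00. The values of S100A14 and S100A16 after withdrawal rested on mouse 19, since the differences were 0.37 and 0.36 without its primary tumor and 3.23 and 2.46 without that of mouse 10.

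In the 4 mice that gave both sites the node was higher than the primary tumor of the same mouse in 39 of 40 gene and mouse pairs, S100A13 in mouse 10 being the exception at -0.42. Over all genes tested 57.6% of such pairs were higher in the node, a share not matched for level. The 40 pairs are not independent, as they come from 4 mice. The side of the hybridization control signal also differed within mouse 10 (node low, primary tumor high) and mouse 11 (node high, primary tumor low). There site and side cannot be told apart, whereas mice 14 and 19 had both arrays on the same side. After quantile normalization 32 of the 40 were above 0, against 51.2% over all genes. S100A7, S100A8 and S100A16 were higher in the node in all 4 mice on both scales. For S100A7 the node exceeded the primary tumor by 4.18, 3.65, 1.84 and 4.04 in mice 10, 11, 14 and 19. S100A8 exceeded it by 2.73, 3.36, 1.89 and 5.54 in the same mice. S100A6 exceeded it by 3.93, 2.46, 0.92 and 2.08, and after quantile normalization mouse 14 stood at -0.23. Mouse 14 gave the smallest node excess of S100A7, S100A8, S100A9 and S100A6.

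Averaged over pellet states, S100A6 (2.31 ± 0.32), S100A7 (2.92 ± 0.55), S100A8 (3.00 ± 0.70) and S100A10 (1.03 ± 0.26) were called higher in nodes, against 7.51% of genes. After quantile normalization none was called, against 0.128% called higher, although all 10 remained above 0 with a median of 1.18 and 4 had an unadjusted p under 0.05, against 14.7% of all genes. The call of S100A6 was kept in all 10 fits that left out a single array, with values from 2.12 to 2.52, those of S100A7 in 5, S100A8 in 4 and S100A10 in 2 of them. For S100A6 the value after quantile normalization was 1.75 ± 0.34.

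**Figure D3:**
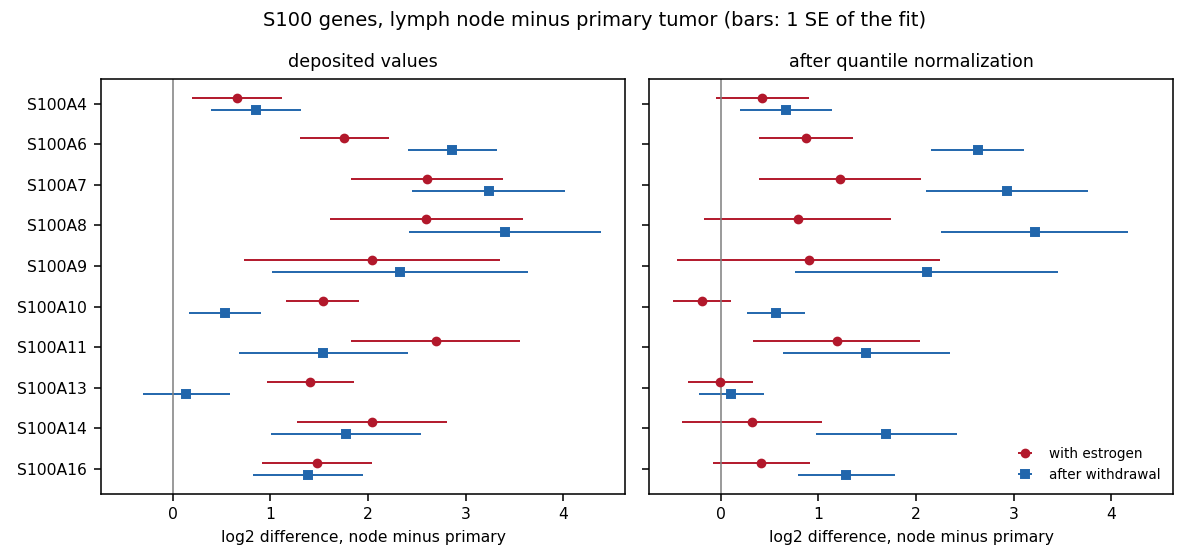
Difference between node metastasis and primary tumor for each of the 10 genes, in estrogen and withdrawn mice, as log2 units with the standard error, as deposited and after quantile normalization. All 10 lie above 0 as deposited, and with estrogen most move towards 0 after quantile normalization, whereas after withdrawal S100A6, S100A7 and S100A8 remain between 2.63 and 3.21.

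Of the 11 remaining S100 genes on the list 10 had a probe set of their own and 9 passed the filter. As deposited 1 of the 9 was called with estrogen between sites, 1 in the estrogen average and 1 in the site average, near the shares of all genes called (8.76%, 8.01% and 8.15%). S100P, a member linked to invasion that binds RAGE, read 9.63, 11.60 and 11.82 in estrogen nodes, 11.74, 11.76 and 10.96 in withdrawn nodes, 6.93 and 8.51 in estrogen primary tumors, and 7.94 and 9.69 in withdrawn ones. Nodes were higher in both pellet states without overlap. S100P rose in nodes against primary tumors with estrogen by 3.27 ± 0.80 (limma adjusted p = 0.0392) and in the average over pellet states by 2.97 ± 0.56 (limma adjusted p = 0.0193). After quantile normalization the values were 2.02 and 2.28 with limma adjusted p of 0.357 and 0.123. As deposited, the call of S100P with estrogen held in 2 of the 10 fits that left out 1 array. That in the average over pellet states held in 6.

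S100A7A, a close paralogue of S100A7, rose with estrogen in the average over sites by 1.11 ± 0.28 (limma adjusted p = 0.0485, and 0.0519 after quantile normalization). The call as deposited held in 2 of the 10 fits that left out 1 array. Whether the probe sets of S100A7 and S100A7A read each other's transcript was not tested. S100A12, the third calgranulin, differed by 1.03 ± 0.41 in nodes (limma adjusted p = 0.791). S100A2, an epithelial member, differed by 2.49 ± 1.52 in primary tumors (limma adjusted p = 0.345) and read 9.98 in the estrogen node of mouse 11 but 4.86 and 5.23 in the others. Of the S100-fused genes of the same region, which build the cornified layer, 2 of 7 could be tested, TCHH and CRNN, and neither passed in any of the 7 comparisons.

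Of the partners of S100 proteins 22 could be tested. As deposited 4 were called lower with estrogen in primary tumors, against 6.94% of all genes, and 3 higher in nodes with estrogen, against 7.81%. In primary tumors ANXA2, the partner of S100A10, fell with estrogen by 1.56 (limma adjusted p = 0.0203), ANXA5, which binds phosphatidylserine, by 2.62 (limma adjusted p = 0.0294), ANXA11 by 1.40 (limma adjusted p = 0.0219), and RANBP9 by 2.80 (limma adjusted p = 0.0246). None of these 4 was called after quantile normalization, where ANXA2 stood at 0.23 and the others at -1.81, -0.31 and -1.12. With estrogen ANXA2 (1.63), ANXA11 (1.55) and CACYBP (2.02), the partner of S100A6, were called higher in nodes than in primary tumors, with -0.14, 0.49 and 0.68 after quantile normalization and no call. In the average over sites ANXA5 fell with estrogen by 1.87 (limma adjusted p = 0.0236) and was still called after quantile normalization at -1.39 (limma adjusted p = 0.0288). As deposited, that call held in 5 of the 10 fits that left out 1 array. ANXA1, the partner of S100A11, was higher with estrogen in nodes by 2.21 ± 0.74 (limma adjusted p = 0.695), without overlap. It read 9.72, 7.64 and 7.83 in estrogen nodes and 6.74, 6.72 and 5.10 in withdrawn ones.

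Of 13 genes that lie beside the cluster on chromosome 1, 11 could be tested. CREB3L4, a transcription factor tied to secretory epithelium, fell with estrogen in the average over sites by 1.98 ± 0.37 (limma adjusted p = 0.0221) and was called after quantile normalization at -1.94 (limma adjusted p = 0.0233). As deposited, that call held in 6 of the 10 fits that left out 1 array. The zinc transporter gene SLC39A1 and JTB were lower with estrogen in primary tumors (-1.68 and -1.53, both called) and stood at 0.03 and -0.06 after quantile normalization. Counted together, the 44 tested genes of the 4 lists gave 0 calls by limma in nodes, against 0% of all genes, with 7 at an unadjusted p under 0.05, against 5.84%. They gave 6 lower in primary tumors, against 6.94%, and 6 higher in nodes with estrogen, against 7.81%. Between sites after withdrawal limma called 0, against 0%, and 3 had an unadjusted p under 0.05, against 10%. After quantile normalization all 4 counts of calls were 0.

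**Figure D4:**
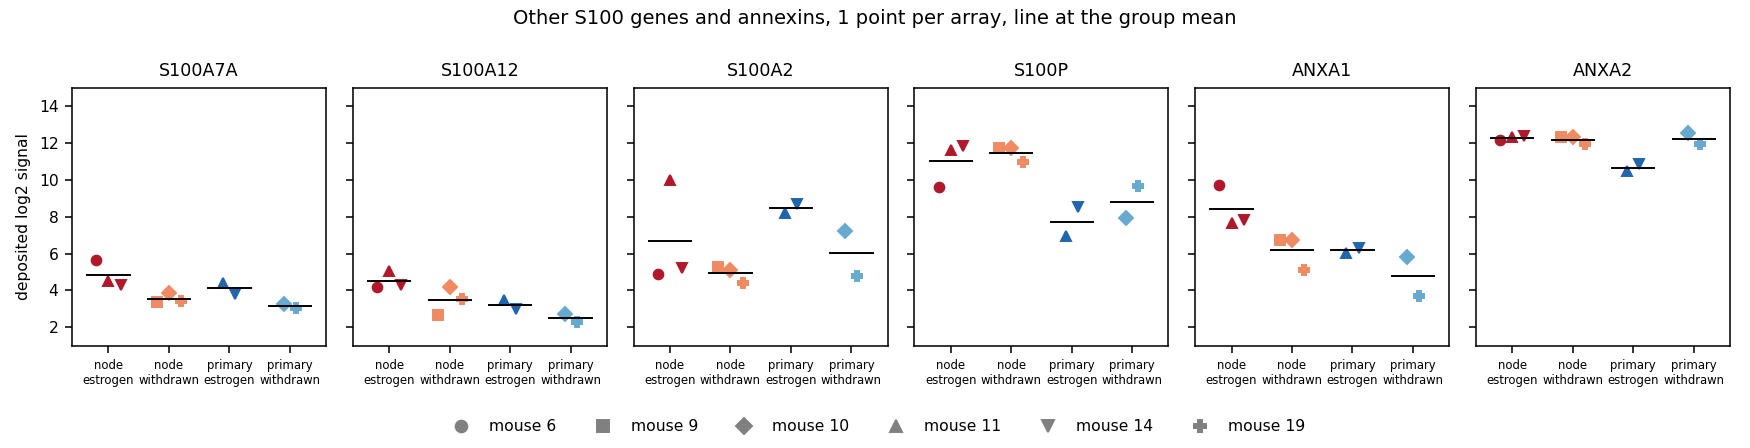
Deposited log2 signal of S100A7A, S100A12, S100A2, S100P, ANXA1 and ANXA2 on each of the 10 arrays, with points for single arrays and a bar for the group mean. S100P is higher in nodes in both pellet states, and ANXA2 is lowest on the estrogen primary tumor arrays, a difference that turns to 0.23 after quantile normalization.

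For each of the 10 genes the 3 genes with the most similar pattern over the 10 arrays were found by Pearson's r after quantile normalization. The closest to S100A7 were NDUFAF4 (0.99), SHMT2 (0.98) and KRTDAP (0.97), the last a gene of differentiating keratinocytes. CDT1, TMEM138 and HSD17B1 were closest to S100A8, and RGS14, EPS15L1 and POLR2F to S100A9. PRADC1, RAB8A and BLVRB stood closest to S100A6, and H3C10, REPS2 and S1PR3 to S100A13. S100A4 was nearest CYB5B, LOC105373383 and SEC14L5, and S100A10 was nearest TUBA1A, FUOM and PHEX. S100A11 was nearest MKS1, PIP5K1C and RABAC1, S100A14 was nearest LPAR2, SAC3D1 and YIF1A, and S100A16 was nearest ARL2BP, ZFYVE9 and DSCR8. On the deposited scale KRTDAP kept 0.97 with S100A7, whereas PHEX had 0.06 and FUOM 0.36 with S100A10. CYB5B had 0.39 with S100A4 and POLR2F 0.47 with S100A9. These genes were picked as the highest of 17170 over 10 arrays that share groups and mice. Group differences enter into the correlations, which are descriptions only.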

How the data were processed

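Biotin-labelled RNA was read on human expression arrays. The authors deposited log2 signals per probe set, made with RMA and Partek per the submitters' processing notes, with no version given in the sources used here. Gene names came from GEO's platform annotation: of 61359 probe sets 44532 had 1 symbol, 1492 several, 15273 none, and 62 were controls. A gene was read by its single-symbol probe set with the highest mean, and kept where that mean reached 2.31, the 25th percentile over probe sets, which left 17170 genes. A model with 4 group means was fitted to all 10 arrays with limma 3.58.1 in R 4.3.3, with mouse as a random block (duplicateCorrelation) and Benjamini-Hochberg adjustment over all genes tested; 7 comparisons were made, which share arrays. With 2 or 3 arrays a group, their number limits the precision. The script was tested on simulated data. The 10 genes, lists and markers were chosen with earlier results of these data known. Named were all 10 genes, every called gene of the other lists up to 6 per list and comparison, otherwise the 2 with the greatest absolute t, of which the text prints some, and for each of the 10 genes the 3 most alike. Mouse numbers in the labels pair sites: same-numbered arrays come from 1 animal. Their deviations from group means correlated at 0.18 (mouse 10), -0.21 (mouse 11), -0.21 (mouse 14) and 0.08 (mouse 19). Alternatives were quantile normalization, no filter, the mean of a gene's probe sets, no block, the side (low or high) of the hybridization control signal as a covariate and each array left out. Added after seeing the data were leaving out both estrogen primary tumor arrays, and quantile normalization without the estrogen node of mouse 11. No sequences were used here.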

Additional observations from a re-analysis of the deposited data

How the results depend on the processing

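Alternatives chosen after seeing the data are named in the account of processing. Calls among the 10 S100 genes in estrogen against withdrawn primary tumors went from 2 to 1 under quantile normalization. In nodes against primary tumors with estrogen they went from 2 to 0 under quantile normalization, to 1 without the filter, to 0 with the mean of probe sets, to 5 with the hybridization side as a covariate, and to 0 under quantile normalization without the node of mouse 11. After withdrawal that covariate gave 2 in place of 0. In the site average 4 went to 0, 2, 8 and 1 under quantile normalization, the mean of probe sets, the covariate and quantile normalization without the node of mouse 11. Leaving out 1 array gave 0 to 3 calls in primary tumors, in nodes against primary tumors with estrogen and in the estrogen average, 1 to 7 in the site average and 0 elsewhere. Among the 44 genes of the other lists, quantile normalization took primary tumors from 6 to 0, nodes against primary tumors with estrogen from 6 to 0, the estrogen average from 7 to 2 and the site average from 5 to 0. The covariate gave 14, 14, 17 and 9 there. It gave 8 in the difference of responses and 1 in nodes against primary tumors after withdrawal, in place of 0 each. Within a pellet state of the primary tumors the side did not vary. Its effect was thus estimated from the nodes, where the high side held 1 array of each pellet state. Counts with the covariate in comparisons that use primary tumors carry that estimate over. They cannot separate side from pellet state there. Quantile normalization without the node of mouse 11 gave 3 in nodes against primary tumors with estrogen and 2 in the site average. Leaving out 1 array gave 0 to 14, 0 to 13, 0 to 13 and 0 to 15 in the same 4 comparisons, 0 to 7 in the difference of responses and 0 elsewhere. The share of all genes called moved with these settings: from 7.82%, 8.76%, 8.01% and 8.15% in those 4 comparisons to 1.34%, 0.46%, 3.72% and 0.344% under quantile normalization and to 32.8%, 26.2%, 32.1% and 15.4% with the covariate, which also called 19.7% in the difference of responses and 6.28% between sites after withdrawal. In nodes against primary tumors with estrogen it was 7.4% without the filter and 5.07% with the mean of probe sets. Under quantile normalization without the node of mouse 11 it was 2.67% there. In the site average the mean of probe sets gave 5.42%, and quantile normalization without that node gave 2.19%. The cause of these shifts was not tested. Without both estrogen primary tumor arrays the counts in nodes and between sites after withdrawal were 0 for both sets of genes, as before. Over the settings other than leaving out 1 array, 362 repeated differences of the 10 genes moved by less than the SD between replicates, 76 by more, and 2 that had been called reversed.

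Among called differences signs reversed under quantile normalization, with the value without the node of mouse 11 second, for S100A10 in nodes against primary tumors with estrogen (-0.19, -0.26), for ANXA2 in primary tumors (0.23, 0.22), in nodes against primary tumors with estrogen (-0.14, -0.22), in the estrogen average (0.18, 0.14) and in the site average (-0.094, -0.13), and for SLC39A1 in primary tumors (0.028, 0.033), in nodes against primary tumors with estrogen (-0.12, -0.22) and in the site average (-0.046, -0.089). Differences not called also changed sign, among them S100A10, S100A11, S100A14 and S100A16 in primary tumors and 5 of the 10 genes in the difference of responses under quantile normalization. Without the block on mouse the pairing was ignored, and the counts for the 10 genes were 0, 2, 0, 2, 0, 2 and 4 over nodes, primary tumors, their difference, sites with estrogen, sites after withdrawal, estrogen average and site average, and for the other lists 0, 6, 0, 7, 0, 6 and 5.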
